A study of Mus musculus with 8 samples.

Results

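Podosomes are small columns of branched actin ringed by integrins and adaptor proteins, through which macrophages and osteoclasts hold on to a surface. In osteoclasts they fuse into a belt, the sealing zone, which closes off the patch of bone under the ruffled border where acid and proteases are released. Signals from the integrin αvβ3 pass through the kinases Src and Pyk2 to adaptors and actin regulators that build and dissolve these structures. Transcript levels of 10 genes of this machinery are described here: the kinase genes Src and Ptk2b, the scaffold genes Sh3pxd2a, Cttn and Pstpip2, the adhesion plaque genes Pxn, Vcl, Tln1 and Fermt3, and the actin-severing gene Gsn. They were chosen by symbol from the 19505 genes of the array, each through its transcript cluster with the highest mean signal. All 10 counted as measured, meaning that the highest of the 8 signals reached 4.86, the 50th percentile of the table, as did 10871 genes in all.

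The study cultured bone marrow cells of C57BL6/J mice and read 1 array for each of 8 groups. The cultures were PSS1-LMS, PSS1-WT, M-CSF+RANKL and M-CSF, each on day 6 and day 3 of treatment. All 4 received M-CSF (50 ng/ml), a growth factor that keeps macrophage precursors alive. The first 3 also received RANKL (100 ng/ml), the cytokine that turns these precursors into osteoclasts, and the PSS1 cultures were infected a day later with a retrovirus for mutant or wild-type PSS1, the phosphatidylserine synthase encoded by Ptdss1. The labels do not say whether the cultures without PSS1 received an empty vector, what mutation the insert carried, or how many animals gave marrow. Values are log2 signals or differences of log2 signals unless a fold or a summed linear signal is named. A signal is called within background when it did not exceed the brightest of the 23 background probe sets on its own array, which lay between 5.54 and 7.13. The cut of 4.86 for measured genes is lower than this, so some measured genes were within background on all 8 arrays. With 1 array a group, a difference on a single day has no replicate check. The tests (limma) of RANKL and PSS1 use the difference averaged over both days, with the part that changed between days as error. Tests of change between days take the spread of that change among the cultures with RANKL as error. None of these tests covers spread between animals or repeat cultures.

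Osteoclast markers followed RANKL. They include Mmp9 and Itgb3, which are also reported below among the podosome protease and integrin genes. Of 10 such markers, all were above background on each of the 6 arrays with RANKL, 1 on the M-CSF array of day 6 (Atp6v0d2) and 0 on that of day 3. Their summed linear signal was 3130000 to 3570000 with RANKL, against 6260 on day 6 and 180 on day 3 in the M-CSF culture. Of 9 macrophage markers found, 6 or 7 were above background with RANKL and 9 in the M-CSF culture. Ptdss1 read 17.50 on day 6 and 18.79 on day 3 in the PSS1-LMS culture and 18.06 and 18.91 in the PSS1-WT culture, and 10.36 and 9.56 in cells given M-CSF+RANKL and no PSS1. In such mixed cultures, fewer cells of a type and less RNA per cell cannot be told apart.

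The first question was which of these genes differ when RANKL is added to M-CSF. Src, Cttn, Vcl and Sh3pxd2a rose, none of the 10 fell, and 6 did not pass the test. Their rises were 7.53, 5.42, 4.26 and 3.56 log2 units, in the same order. Signals in the M-CSF culture lay within background on both days for Src and Cttn and on day 6 for Vcl. The background for these counts is 14.1% of all measured genes called higher with RANKL and 12.4% called lower. With a filter at the 75th percentile these shares were 18.9% and 16.6%, and the counts of the 10 genes were again 4 and 0. All 4 were at least 2-fold higher on both days, as were 11.7% of measured genes. The median difference of the 10 genes was 1.26, against 0.03 over all measured genes. Osteoclast and macrophage markers moved with RANKL as given above. Of 4 megakaryocyte and platelet markers 2 were ever above background, and their summed linear signal was 176 to 312 with RANKL, against 28800 on day 6 and 33500 on day 3 in the M-CSF culture. Pf4 made up nearly all of that difference, and Gp9 and Ppbp were within background on all 8 arrays. Their part in the results on RANKL was not tested.

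Src encodes the tyrosine kinase without which mouse osteoclasts form but make no ruffled border. Its signal was 10.66 on day 6 and 11.11 on day 3 in the PSS1-LMS culture, 10.98 and 11.45 in the PSS1-WT culture, and 11.27 and 11.49 in the M-CSF+RANKL culture. In the M-CSF culture it was 3.48 on day 6 and 4.22 on day 3, both within background. All 6 arrays with RANKL lay above both M-CSF arrays, and the lowest of them was 6.44 above the higher M-CSF value. The difference between the M-CSF+RANKL and M-CSF cultures was 7.53 ± 0.29 (SE, limma, adjusted p = 4.67e-06), a rise of at least 25.5-fold when the M-CSF signals are raised to their arrays' background.

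Ptk2b encodes Pyk2, the kinase of the focal adhesion kinase family that works with Src downstream of αvβ3. It went the other way on every array without passing the test: 7.40 on day 6 and 7.36 on day 3 in the PSS1-LMS culture, 6.75 and 7.43 in the PSS1-WT culture, and 7.47 and 7.99 in the M-CSF+RANKL culture, against 8.31 and 8.58 in the M-CSF culture. The 2 sets of arrays did not overlap. The difference between the M-CSF+RANKL and M-CSF cultures was -0.71 ± 0.31 (adjusted p = 0.134, limma). Set against M-CSF as the mean of all 3 cultures with RANKL, the difference was -1.04 and passed (adjusted p = 0.0151, limma). That mean takes in the PSS1 cultures, where Ptk2b differed from the M-CSF+RANKL culture by -0.35 with PSS1-LMS and -0.64 with PSS1-WT. Neither of these passed. Arrays with RANKL were all below both M-CSF arrays for 20.8% of measured genes and all above them for 22.2%, against 1 and 4 of these 10.

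Among the scaffolds, Cttn encodes cortactin, a Src substrate that binds the Arp2/3 complex and steadies branched actin. It read 9.28 on day 6 and 9.63 on day 3 in the PSS1-LMS culture, 9.64 and 9.40 in the PSS1-WT culture, and 10.20 and 9.66 in the M-CSF+RANKL culture. On the M-CSF arrays it was at 4.37 on day 6 and 4.65 on day 3, both within background. The difference was 5.42 ± 0.33 (adjusted p = 3.29e-05, limma), at least 9.32-fold. Sh3pxd2a encodes Tks5, a large Src substrate with several SH3 domains that organises podosomes and invadopodia. Its signals were 10.56 on day 6 and 10.67 on day 3 in the PSS1-LMS culture, 11.59 and 11.06 in the PSS1-WT culture, and 11.49 and 11.25 in the M-CSF+RANKL culture, against 7.51 and 8.11 in the M-CSF culture. Unlike Src and Cttn, this gene was above background on all 8 arrays, so the rise of 3.56 ± 0.35 (adjusted p = 0.000261, limma) is a measured 11.8-fold.

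Pstpip2 encodes an F-BAR protein that binds membranes and actin regulators, and its loss causes an inflammatory bone disease in mice. It read 10.59 on day 6 and 10.38 on day 3 in the PSS1-LMS culture, 9.51 and 10.12 in the PSS1-WT culture, and 10.21 and 10.15 in the M-CSF+RANKL culture. With M-CSF alone it was at 10.40 on day 6 and 8.64 on day 3, so the groups overlapped. The averaged difference of 0.66 ± 0.52 did not pass (adjusted p = 0.406, limma). The sign of the difference between the M-CSF+RANKL and M-CSF cultures turned between the days for Pstpip2 (-0.19 on day 6 and 1.51 on day 3) and for Fermt3 (-0.52 and 0.83), as it did for 29.9% of measured genes.

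Of the plaque genes, Vcl was the one that rose. Its product vinculin binds talin and actin and strengthens the link between them under load. The signals were 10.21 on day 6 and 11.20 on day 3 in the PSS1-LMS culture, 10.73 and 11.05 in the PSS1-WT culture, and 11.47 and 11.75 in the M-CSF+RANKL culture. With M-CSF alone it read 7.03 on day 6, within background, and 7.68 on day 3, and no array with RANKL came nearer than 2.54 units to these. The difference was 4.26 ± 0.31 (adjusted p = 6.35e-05, limma), at least 18.5-fold.

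Pxn encodes paxillin, an adaptor phosphorylated by the kinases of both families. It was at 12.99 on day 6 and 13.01 on day 3 in the PSS1-LMS culture, 11.73 and 13.40 in the PSS1-WT culture, and 12.66 and 13.47 in the M-CSF+RANKL culture, against 11.80 and 11.36 in the M-CSF culture. Only the PSS1-WT array of day 6 overlapped the M-CSF arrays. The difference of 1.48 ± 0.49, or 2.79-fold, lay just short of the threshold (adjusted p = 0.0618, limma), and passed without either PSS1-WT array (adjusted p = 0.0420).

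Tln1 encodes talin-1, which switches integrins on and ties them to actin. It read 17.15 on day 6 and 17.00 on day 3 in the PSS1-LMS culture, 17.37 and 17.05 in the PSS1-WT culture, 17.28 and 17.45 in the M-CSF+RANKL culture, and 16.50 and 17.14 in the M-CSF culture. Its 6 arrays with RANKL spanned only 0.45 units, the narrowest range of the 10 genes, and the difference of 0.54 ± 0.33 did not pass (adjusted p = 0.279, limma). Fermt3 encodes kindlin-3, the integrin activator of blood cells. It read 14.36 on day 6 and 14.94 on day 3 in the PSS1-LMS culture, 13.86 and 14.78 in the PSS1-WT culture, 14.60 and 14.44 in the M-CSF+RANKL culture, and 15.12 and 13.61 in the M-CSF culture. The M-CSF culture thus held both the highest and the lowest of its 8 values, and the averaged difference was 0.15 ± 0.55 (adjusted p = 0.867, limma).

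Gsn encodes gelsolin, a calcium-dependent protein that severs and caps actin filaments and without which mouse osteoclasts lack podosomes. Its signals were 13.11 on day 6 and 14.37 on day 3 in the PSS1-LMS culture, 12.74 and 14.24 in the PSS1-WT culture, and 13.61 and 14.75 in the M-CSF+RANKL culture, against 13.55 and 12.75 in the M-CSF culture. All 3 cultures with RANKL were above the M-CSF culture on day 3, and the sets overlapped on day 6. The averaged difference was 1.03 ± 0.54 (adjusted p = 0.211, limma).

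**Figure D1:**
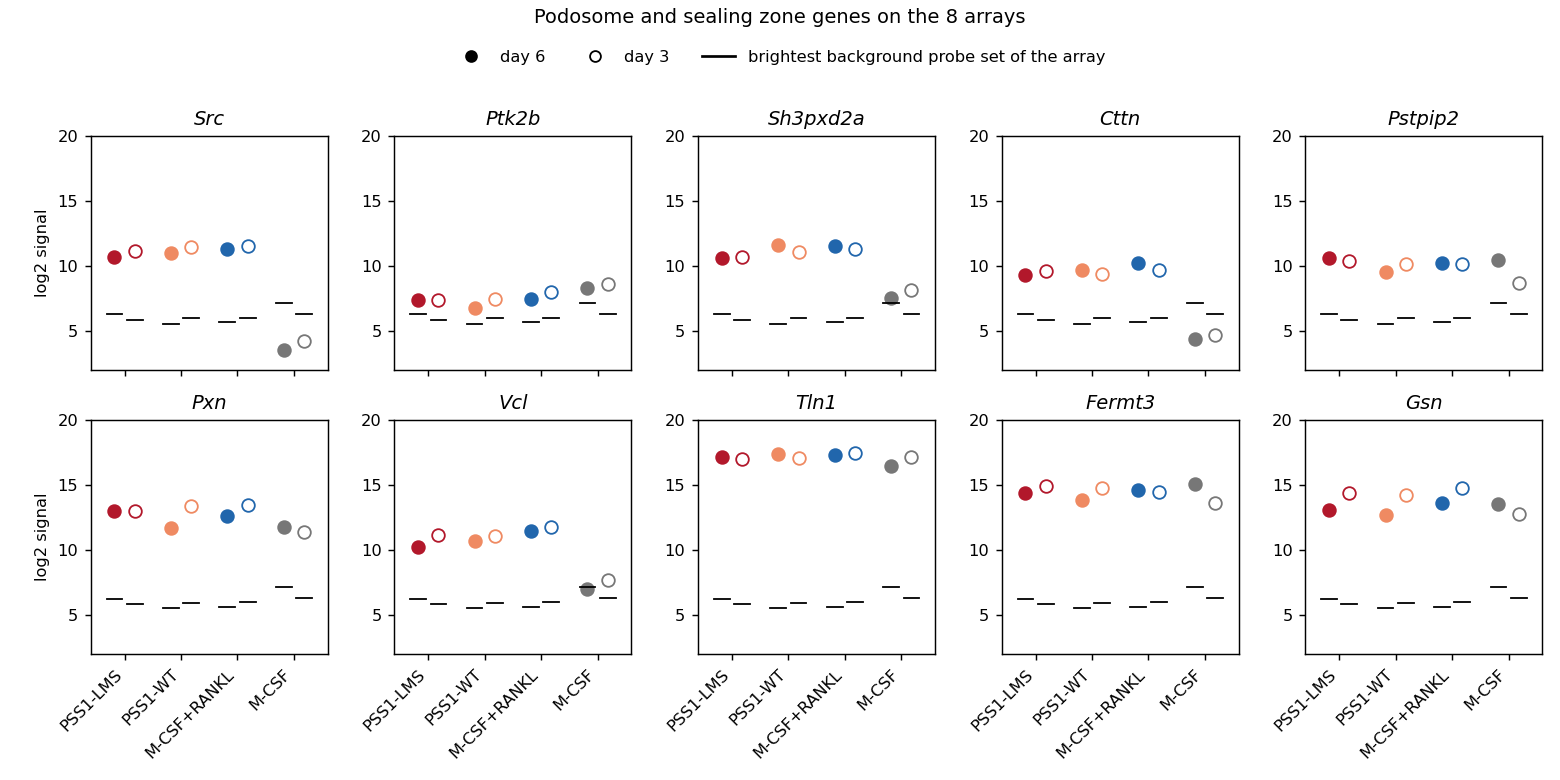
Each panel plots the log2 signal of 1 gene (vertical axis) in the 4 cultures (horizontal axis), 1 point per array, filled for day 6 and open for day 3; the short black line under or over a point is the brightest background probe set of that array. Src and Cttn lie within background on both M-CSF arrays and between 9.28 and 11.49 on the 6 arrays with RANKL, whereas Tln1 stays between 16.50 and 17.45 on all 8.

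The count of 4 moved most with the M-CSF culture. When its day 6 array was left out, 8 of the 10 genes were higher with RANKL by limma, as were 22.5% of all measured genes; Pxn (2.12), Gsn (2.08), Pstpip2 (1.60) and Fermt3 (1.13) joined the others. Without the M-CSF array of day 3, 5 were higher, with Tln1 added (0.91, adjusted p = 0.0334), as were 21.6% of all measured genes. The count was also 5, with Pxn, without either PSS1-WT array (11.8% of all measured genes) and for the mean of the 3 cultures with RANKL (17.1%). Src, Cttn, Vcl and Sh3pxd2a passed in each of the 18 alternative fits, including the one with all signals at or under 7.13 raised to that value. Leaving out the day 6 or the day 3 array of a PSS1 culture gave the same fit, so the 18 are not all distinct.

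**Figure D2:**
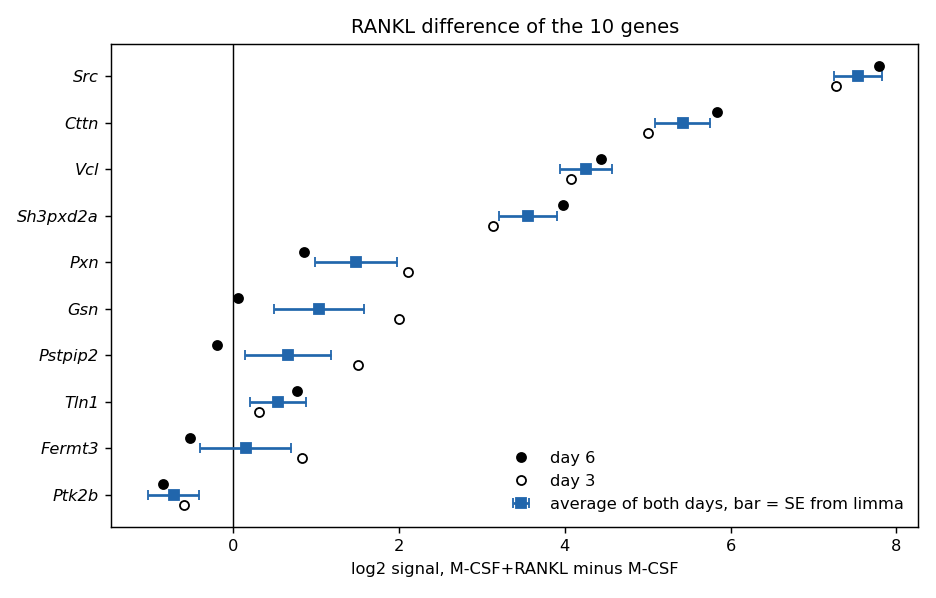
Difference of log2 signals between the M-CSF+RANKL and M-CSF cultures (horizontal axis) for each of the 10 genes (vertical axis), with the average over both days as a square, its standard error from limma as a bar, and the single days as circles. For Src, Cttn, Vcl and Sh3pxd2a both days lie at 3.14 or above; for Gsn they are 0.06 on day 6 and 2.003 on day 3.

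The promoters of Src, Vcl and Gsn are shown, since the first 2 rose with RANKL on both days and Gsn changed with time. RefSeq windows (GRCm38.p6) matched 5 of the 10 genes, and the 250 bases before the start site are given 5′ to 3′ on the gene's strand. Src is at chr2:157424043-157424292, plus strand; Vcl at chr14:20929148-20929397, plus strand; and Gsn, through the third of its 3 listed start sites, at chr2:35282130-35282379, plus strand. Capitals mark motif matches.
Src: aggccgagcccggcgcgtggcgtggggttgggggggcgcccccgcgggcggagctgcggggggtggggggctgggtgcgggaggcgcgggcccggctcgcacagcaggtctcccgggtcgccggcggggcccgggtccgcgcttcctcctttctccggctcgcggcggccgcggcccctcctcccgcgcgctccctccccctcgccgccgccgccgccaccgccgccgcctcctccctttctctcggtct
Vcl: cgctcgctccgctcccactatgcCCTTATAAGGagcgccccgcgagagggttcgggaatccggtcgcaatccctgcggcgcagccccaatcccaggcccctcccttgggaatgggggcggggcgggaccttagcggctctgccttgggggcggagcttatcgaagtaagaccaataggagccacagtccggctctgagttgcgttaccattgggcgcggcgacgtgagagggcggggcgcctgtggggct
Gsn: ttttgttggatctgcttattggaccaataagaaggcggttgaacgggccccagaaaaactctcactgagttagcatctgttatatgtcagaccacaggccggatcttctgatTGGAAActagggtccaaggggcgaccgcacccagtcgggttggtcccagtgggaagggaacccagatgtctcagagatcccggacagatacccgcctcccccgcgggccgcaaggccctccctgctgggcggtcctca
Both strands were searched for the AP-1 motif TGANTCA, the NFAT motif TGGAAA, the MITF motif CACGTG, the PU.1 motif and the CArG box, which binds serum response factor. The Vcl window held 1 CArG box, which reads the same on both strands, from 227 to 218 bases before the start; 1.47% of the 32851 windows searched held one. The Gsn window held 1 NFAT match from 138 to 133 bases before the start; 18.6% of all windows held at least 1. The other 2 Gsn windows held none of the motifs. The Src window, which is 82.8% G and C, held none of the 5 motifs, nor did those of Tln1 and Fermt3. AP-1 matched 6.75% of windows, MITF 6.02% and PU.1 2.44%. A match is a description of the letters and was not tied to the signals.

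Relatives of these genes, and the other parts of the podosome, were read from 14 lists with 140 further symbols. Among them, Ctgf and Cyr61 are older names of Ccn2 and Ccn1, which are listed too. Of the 140 symbols, 128 had a cluster named by symbol and 114 were measured. With RANKL 26 rose and 19 fell, the other 69 did not pass, and the median difference was -0.03. These are 22.8% and 16.7% of those measured, beside 14.1% and 12.4% of all measured genes. Some relatives, such as Lyn and Ptk2, are not analysed here.

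Within families, members went different ways. The Src family kinase gene Fyn fell, reading 5.83 on day 6 and 5.55 on day 3 in the M-CSF+RANKL culture, against 7.96 and 8.24 in the M-CSF culture (-2.41, adjusted p = 0.0012, limma, at least 4.53-fold), and Fgr did not pass (0.93, adjusted p = 0.0795). Pstpip1, the sister gene of Pstpip2, rose 13.0-fold, with 14.46 on day 6 and 14.46 on day 3 in the M-CSF+RANKL culture, against 10.69 and 10.83 in the M-CSF culture (3.70 ± 0.30, adjusted p = 0.000111, limma). Hcls1, the cortactin relative of blood cells, was at -0.95 (adjusted p = 0.0557) and Sh3pxd2b, the second Tks gene, at -0.35 (adjusted p = 0.632), and neither passed. Lpxn, which encodes the paxillin relative leupaxin, fell 14.3-fold (-3.84 ± 0.31, adjusted p = 0.000109, limma), with 9.17 on day 6 and 7.41 on day 3 in the M-CSF+RANKL culture, against 12.67 and 11.59 in the M-CSF culture.

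In the gelsolin family, Scin, which encodes the severing protein adseverin, rose at least 278-fold. It read 14.63 on day 6 and 15.03 on day 3 in the M-CSF+RANKL culture, against 4.07 and 4.58, within background, in the M-CSF culture (10.51 ± 0.32, adjusted p = 1.26e-06, limma). Flii rose by 1.12 (adjusted p = 0.0285), and Svil, which encodes supervillin, fell (-3.67, 12.7-fold, adjusted p = 0.000342). Capg, the capping protein of macrophages, did not pass (0.95, adjusted p = 0.0809), nor did Vil1 (-0.41, within background). Ctnna1, the vinculin relative of cell junctions, was at 0.30 (adjusted p = 0.512). The differences between relatives were not tested against each other.

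**Figure D3:**
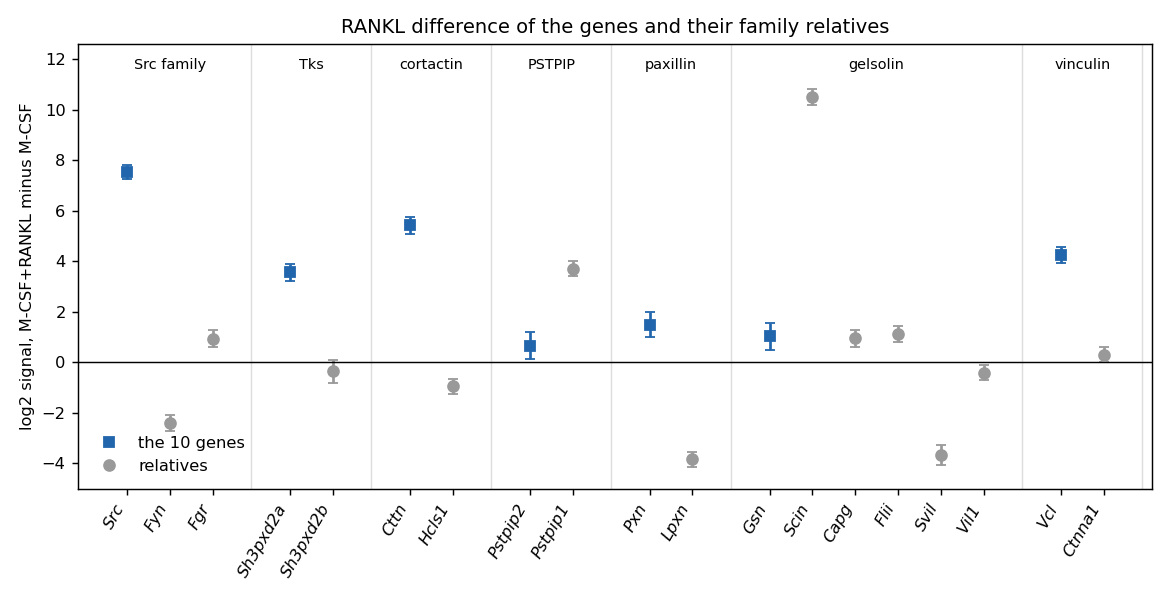
Difference of log2 signals between the M-CSF+RANKL and M-CSF cultures averaged over both days (vertical axis), with the standard error from limma, for 7 of the 10 genes (squares) and their measured relatives (circles), grouped by family along the horizontal axis. Scin (10.51) and Pstpip1 (3.70) lie above Gsn (1.03) and Pstpip2 (0.66), while Fyn (-2.41) and Lpxn (-3.84) lie below 0 beside Src (7.53) and Pxn (1.48).

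Upstream of the kinases, 4 of 8 genes for integrins and the adhesion receptor CD44 rose and 2 fell. Itgb3 and Itgav, which encode the 2 chains of αvβ3, rose by 9.68 (at least 228-fold) and 4.59 (24.1-fold), and Cd44 by 1.60 and Itga5 by 1.35. Itgb5 and Itgam fell (-5.15, 35.5-fold, and -3.31, 9.90-fold). Of 7 other integrin activators and linkers, the parvin gene Parvb (1.74) and the adaptor gene Lims1 (0.97) rose, the zyxin gene Zyx fell (-2.01) and 4 did not pass, among them Ilk (-0.44). Of 16 signalling partners of Src, 4 rose and 1 fell. The docking protein gene Bcar1 rose by 3.604, at least 1.52-fold, the ubiquitin ligase gene Cblb by 2.65, and the phosphatase genes Ptpre by 1.65 and Ptpn12 by 1.58. The ligase gene Cbl fell (-2.03, 4.08-fold).

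Of 13 genes for branched actin nucleation, 12 did not pass and 1 fell, the adaptor gene Nck2 (-0.96, within background). The measured genes of the Arp2/3 complex, Arpc1b, Arpc2, Arpc4, Arpc5 and Actr3, ran from -0.40 to 0.70 without passing.

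Of 17 genes for actin crosslinking and turnover, the actinin genes Actn1 (3.03) and Actn4 (0.91) and the formin gene Fmnl2 (2.96, at least 7.58-fold) rose. Evl (-4.42, at least 20.7-fold), Lsp1 (-3.88), Coro1a (-3.11) and Fmnl1 (-1.17) fell. Of 12 genes for myosins and microtubule partners, Myo10 (6.05, at least 38.0-fold), Tubb6 (5.00) and Myo1e (4.07) rose and Myo1f (-2.42) and Asap1 (-1.01) fell. The membrane protease gene Mmp14 rose at least 1140-fold (11.22 ± 0.47, adjusted p = 6.57e-06, limma) and Mmp9 at least 7380-fold (15.18), whereas Adam8 (-3.56) and, within background, Adam15 (-1.39) fell among 5 podosome proteases. Of 10 targets of serum response factor, the tropomyosin genes Tpm1 (3.49, 11.2-fold) and Tpm2 (1.49) rose; Tpm2 was above background on 2 of the 8 arrays and no fold is given.

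The next comparison asked how the 10 genes changed between day 6 and day 3. Gsn fell with RANKL: it changed by -1.25 in the PSS1-LMS culture, -1.50 in the PSS1-WT culture and -1.14 in cells given M-CSF+RANKL and no PSS1. The mean change of -1.30 ± 0.20 passed (adjusted p = 0.00159, limma), a 2.46-fold fall. Among all measured genes 2.07% were lower and 1.31% higher on day 6 with RANKL. With all 8 arrays in the fit the call was lost (-0.77, adjusted p = 0.664, limma). In that fit 0.184% of all measured genes were lower on day 6. None of the other 9 passed. Pxn came nearest (-0.83 ± 0.26, adjusted p = 0.0999, limma), with -0.02 in the PSS1-LMS culture, -1.67 in the PSS1-WT culture and -0.81 in the M-CSF+RANKL culture; without either PSS1-LMS array it passed (-1.24, adjusted p = 0.00207). Src, Pxn, Vcl and Gsn were lower on day 6 in each of the 3 cultures, as were 22.2% of measured genes; 15.9% of measured genes and 0 of the 10 were higher in each.

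Neutrophil markers moved with the day as well. Of 9 found, 1 or 2 were above background on the arrays with RANKL of day 6, and 7 on those of day 3; their summed linear signal was 321 to 636 on day 6 and 18900 to 27000 on day 3, and in the M-CSF culture 2570 and 29600. Their part in the fall of Gsn was not tested. Among the 114 related genes, 7 rose and 1 fell between the days. These are 6.14% and 0.877%, beside 1.31% and 2.07% of all measured genes. The smooth muscle actin gene Acta2 rose 16.0-fold (3.997 ± 0.23, adjusted p = 2.58e-08, limma), with Lpxn (1.35), Evl (1.21), Dock2 (0.94) and Nck1 (0.93), and the parvin gene Parvg fell (-2.55). Ccn1 (0.93) and Tagln (0.87) also passed, each above background on 2 of the 8 arrays. Evl and Parvg were each within background on 1 array with RANKL. Of 12 stromal and muscle-like markers, 8 were within background on all 8 arrays, among them Col1a1, Col1a2, Col3a1 and Pdgfrb. Acta2 and Tagln are themselves among the 12; the summed linear signal of the other 10 with RANKL was 371 to 427 on day 6 and 183 to 210 on day 3. Their part in these changes was not tested.

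Whether the RANKL difference itself changed with time was tested by setting the day change of the 3 cultures with RANKL against that of the M-CSF culture. It fell for Gsn, Fermt3 and Pstpip2 and rose for none of the 10. Over all measured genes it fell for 12.8% and rose for 9.49%. Of the 3 cultures with RANKL, 2 also received the retrovirus for PSS1, and the M-CSF culture did not. The test takes the mean of the 3, so it does not separate a part of infection or PSS1 from that of RANKL. The M-CSF+RANKL culture received no PSS1, and its own day change is given beside the others. The part of infection or PSS1 was not tested. For Gsn the day change was -1.25, -1.50 and -1.14 in the PSS1-LMS, PSS1-WT and M-CSF+RANKL cultures, against 0.80 in the M-CSF culture, a difference of -2.10 ± 0.40 (adjusted p = 0.00188, limma). For Fermt3 the day changes were -0.58, -0.93 and 0.16 with RANKL, against 1.51 in the M-CSF culture (-1.96 ± 0.46, adjusted p = 0.00679, limma). For Pstpip2 they were 0.21, -0.61 and 0.07, against 1.77 in the M-CSF culture (-1.88 ± 0.44, adjusted p = 0.00642, limma). In these last 2 genes the M-CSF array of day 3 was the lowest of all 8, and the arrays with RANKL spanned 1.08 and 1.09 units over both days.

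Pxn had the same sign and did not pass (-1.28 ± 0.52, adjusted p = 0.0948, limma), though it passed without either PSS1-LMS array (-1.68, adjusted p = 0.00731). Sh3pxd2a (0.82, adjusted p = 0.180), Tln1 (0.74, adjusted p = 0.216), Cttn (0.42), Src (0.36), Vcl (0.11) and Ptk2b (-0.12) did not pass either. The M-CSF day change rests on 1 array a day, and the test assumes that these vary like the arrays with RANKL. Macrophage markers moved with it: their summed linear signal in the M-CSF culture was 974000 on day 6 and 293000 on day 3, and 87000 to 91500 on day 6 and 96500 to 111000 on day 3 with RANKL. Their part in these 3 results was not tested. Among the 114 related genes, the RANKL difference rose over time for 8 and fell for 12. These are 7.02% and 10.5%, beside 9.49% and 12.8% of all measured genes. The smallest adjusted p-values by limma were those of Lsp1 (2.92, adjusted p = 0.000199), Tubb6 (2.36, adjusted p = 0.000886) and the phosphatase gene Ptpn6 (-2.55, adjusted p = 0.00102).

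**Figure D4:**
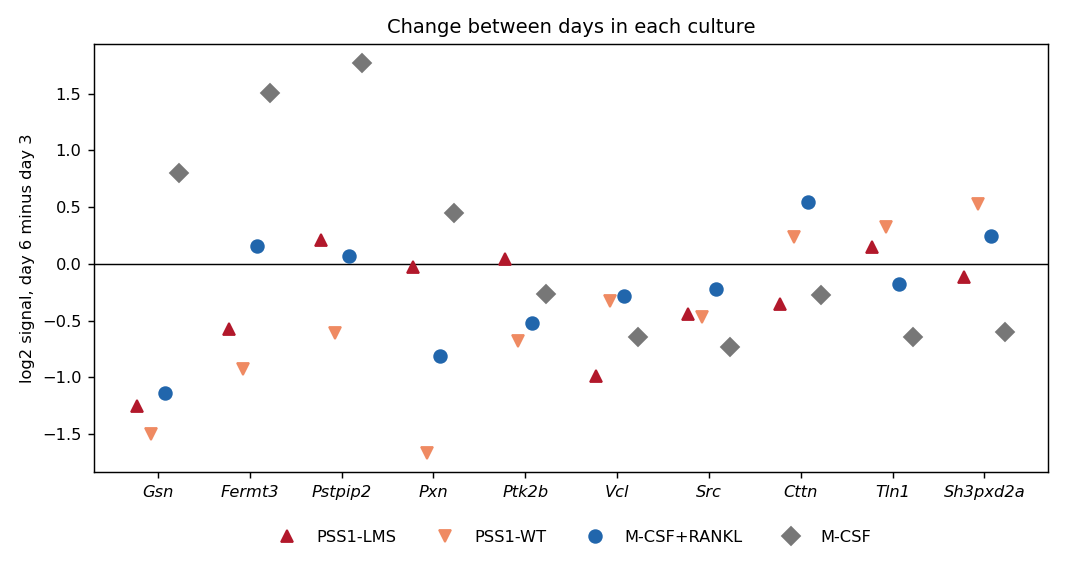
Change of the log2 signal between day 6 and day 3 (vertical axis, day 6 minus day 3) for each of the 10 genes (horizontal axis) in the 4 cultures, 1 symbol per culture. For Gsn, Fermt3 and Pstpip2 the M-CSF culture lies at 0.80, 1.51 and 1.77, above all 3 cultures with RANKL.

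The last question was what PSS1 did to these genes in the presence of RANKL. Tested with limma, 0 of the 10 genes passed for PSS1-LMS, for PSS1-WT or between them; at an unadjusted p under 0.05 there were 2, 3 and 2. Over all measured genes 0.156% were higher and 0.0184% lower with PSS1-LMS, 0.0092% higher and 0% lower with PSS1-WT, and 0% either way between them, and the numbers of genes at an unadjusted p under 0.05 were 714, 746 and 773 of 10871. Both comparisons share the 2 M-CSF+RANKL arrays, so their values are given side by side.

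Vcl had the largest difference in both. It was -0.90 ± 0.26 with PSS1-LMS (-1.25 on day 6 and -0.55 on day 3, adjusted p = 0.359, limma) and -0.72 ± 0.26 with PSS1-WT (-0.74 and -0.70, adjusted p = 0.655, limma). All 4 PSS1 arrays lay below both M-CSF+RANKL arrays for Vcl. Gsn was at -0.44 ± 0.25 with PSS1-LMS (-0.50 on day 6 and -0.38 on day 3) and at -0.69 ± 0.25 with PSS1-WT (-0.88 and -0.51). Sh3pxd2a was at -0.75 ± 0.26 with PSS1-LMS (-0.93 on day 6 and -0.57 on day 3, adjusted p = 0.488) and at -0.05 ± 0.26 with PSS1-WT (0.10 and -0.19). Src was at -0.50 ± 0.25 with PSS1-LMS and at -0.17 ± 0.25 with PSS1-WT.

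Counted by sign, 7 of the 10 genes were lower on both days with PSS1-LMS, against 27.6% of all measured genes, namely Src, Ptk2b, Sh3pxd2a, Cttn, Vcl, Tln1 and Gsn. With PSS1-WT 7 were lower on both days, against 32.2%, namely Src, Ptk2b, Cttn, Pstpip2, Pxn, Vcl and Gsn. Pstpip2 was higher on both days with PSS1-LMS, against 23.2%, and 0 of the 10 were with PSS1-WT, against 18.8%. The medians of the 10 genes with PSS1-LMS and PSS1-WT were -0.40 and -0.39, against -0.02 and -0.06 over all measured genes. Over the 114 related genes they were -0.12 and -0.20. Between PSS1-LMS and PSS1-WT the largest differences were -0.71 ± 0.26 for Sh3pxd2a (-1.03 on day 6 and -0.39 on day 3, adjusted p = 0.598, limma) and 0.68 ± 0.27 for Pstpip2 (1.09 and 0.27, adjusted p = 0.606, limma). Pxn differed by 1.26 on day 6 and -0.38 on day 3. Of the 114 related genes none passed by limma in these 3 comparisons. The smallest adjusted p-values were 0.0987 for Lpxn with PSS1-LMS (1.24 ± 0.26), 0.398 for Rhoc with PSS1-WT (-1.30 ± 0.30) and 0.591 for Lsp1 between them (0.78 ± 0.25).

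**Figure D5:**
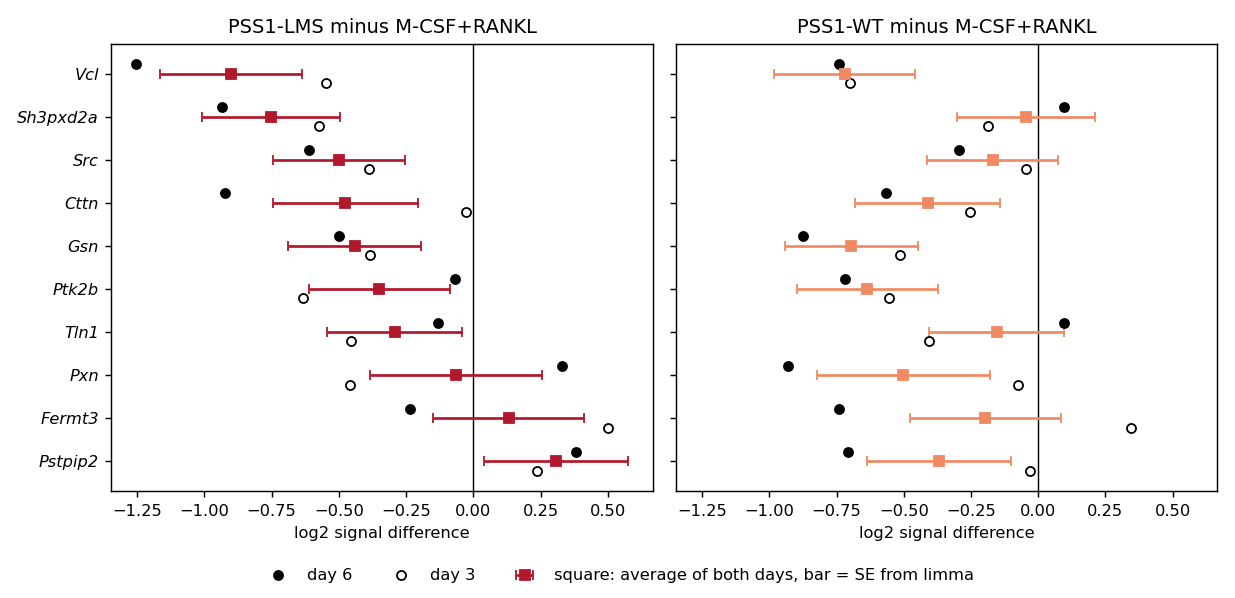
Difference of log2 signals from the M-CSF+RANKL culture (horizontal axis) for the 10 genes (vertical axis) in the PSS1-LMS culture on the left and the PSS1-WT culture on the right; squares are averages over both days with the standard error from limma as bars, and circles are the single days. Vcl lies lowest in both, at -0.90 and -0.72, and no gene passed the test.

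Over the 8 arrays the 10 profiles were compared, after centring each on its mean, by their root mean square difference. The most alike of the 10 were Pstpip2 and Fermt3 (0.337 log2 units), Pxn and Gsn (0.453) and Sh3pxd2a and Vcl (0.455), and the least alike were Src and Ptk2b (3.63). Among all measured genes the nearest to Src was Bdh1 (0.197), to Cttn Denn2b (0.205), to Sh3pxd2a Cmtm4 (0.202), to Vcl Uqcr10 (0.280) and then, at 0.288, Hsd17b10 and Pstpip1, and to Gsn Rps9 (0.259). Nearest to Pxn was Wars2 (0.189), to Tln1 Cnot10 (0.0707), to Fermt3 Zfyve28 (0.107), to Pstpip2 Zfp369 (0.126) and to Ptk2b Vill (0.130). These values describe 8 points from the same arrays and carry no test.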

How the data were processed

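Total RNA (500 ng per array) was labelled for Affymetrix arrays, per the labels' protocols. The deposited table holds log2 signals of 28846 features; the log2 scale is inferred from their range, and the authors' summarisation and normalisation are not given in the sources used here. Signals were used as deposited. Symbols came from the platform annotation: 19572 features had 1 symbol and 0 had several, which gave 19505 genes; these are transcript clusters but for 45, and 2615 of the 22142 clusters had none. Differences were fitted across the 10871 measured genes with limma 3.58.1 in R 4.3.3 (lmFit, eBayes), on an additive model of culture and day. For RANKL all 8 arrays entered the fit (3 residual degrees of freedom). The PSS1 and day comparisons rested on 6 arrays (2 degrees). The change of the RANKL difference with time added a day term for arrays with RANKL (8 arrays, 2 degrees). Adjustment was by Benjamini-Hochberg over all measured genes, with 0.05 as threshold. eBayes added 4.71 prior degrees of freedom for RANKL and 13.3 for the others. All the tests thus rest more on spread shared by all genes than on each gene's own, and the others more so than that of RANKL. Folds against signals within background were computed from that background and are given as "at least". The fits were also run on simulated data of independent noise, in which only a small set of genes was made to differ. That setting lacks the many differences between cultures and days of these arrays. The 10 genes, the lists and the tests were chosen with earlier results of these data known. Of each list, the 2 largest rises and falls past the threshold were to be named; further ones in counts of 5 or fewer, relatives that did not pass and related genes changing between days were named after their values were seen. The counts of 1 list are not reported here. Alternatives covered normalisation, filter, cluster choice, variance prior, arrays in the fit and each array left out. Array number limits the precision of every value.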

Additional observations from a re-analysis of the deposited data

Results flagged for a closer look

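The test of change in the RANKL difference set the mean of the 3 cultures with RANKL against the M-CSF culture. It passed for 3 genes, at -2.10 for Gsn, -1.96 for Fermt3 and -1.88 for Pstpip2 (day 6 minus day 3, log2 units, limma over 8 arrays). In 2 of them the sign turned between the single days when M-CSF+RANKL was set against M-CSF, as it did for 29.9% of all measured genes. Pstpip2 was at -0.19 on day 6 and 1.51 on day 3, and Fermt3 at -0.52 on day 6 and 0.83 on day 3. Each single-day value rests on 1 array per side. The lowest and highest values with 1 array with RANKL left out were -2.18 and -1.998 for Gsn, -2.26 and -1.72 for Fermt3, and -2.04 and -1.63 for Pstpip2. The M-CSF arrays cannot be left out of this test, and their part was not tested. Nor was the part of the retrovirus and PSS1, which only the PSS1 cultures among those with RANKL received.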

How the results depend on the processing

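Across the alternatives, 158 counts of genes higher or lower stayed close to their value and 6 did not. Some alternatives are the same fit counted more than once, since leaving out either array of a culture can leave its other array fitted exactly. With the mean of the 3 cultures with RANKL, 1 gene (Ptk2b) was lower than in M-CSF, against 0, beside 15.9% of all measured genes. In the same fit 5 were higher, with Pxn added (1.29, adjusted p = 0.0413, limma), beside 17.1%. This mean takes in both PSS1 cultures, and no PSS1 culture was kept without RANKL. Leaving out each array gave 4 to 8 genes higher with RANKL and 1 to 2 lower on day 6. A variance prior that follows the signal gave 2 lower on day 6, beside 3.12% of all measured genes. With all 8 arrays 0 were lower, beside 0.184% of all measured genes, and Gsn was at -0.77 (adjusted p = 0.664, limma). The change of Gsn in the M-CSF culture alone was 0.80, and the cause was not tested. No paired analysis was possible because each group is 1 array and the labels give no replicate numbers that pair them. Arrays were matched by day through the day term. Without it 4 genes were higher with RANKL and 0 lower, beside 13.3% and 11.7% of all measured genes. Signs that turned belonged to genes that did not pass. Quantile normalisation gave Sh3pxd2a 0.0186 with PSS1-WT, and all 8 arrays gave day changes of 0.36 for Pstpip2, -0.088 for Tln1 and 0.0412 for Fermt3. With each array left out, the RANKL difference ran from -0.28 to 1.60 for Pstpip2, -0.82 to 1.13 for Fermt3 and -0.0166 to 2.08 for Gsn. With PSS1-WT the ranges were -0.36 to 0.0512 for Tln1, -0.28 to 0.19 for Sh3pxd2a, -0.65 to 0.26 for Fermt3, -0.74 to 0.00428 for Pstpip2 and -1.13 to 0.12 for Pxn. With PSS1-LMS they were -0.32 to 0.59 for Fermt3 and -0.67 to 0.54 for Pxn. Between PSS1-LMS and PSS1-WT they were -0.44 to 0.31 for Cttn, -0.19 to 1.06 for Pxn, -0.31 to 0.0315 for Tln1, -0.0289 to 0.69 for Fermt3, -0.0373 to 0.61 for Ptk2b and -0.52 to 0.16 for Vcl. Day changes with RANKL ran from -0.0568 to 0.39 for Cttn, -0.27 to 0.14 for Pstpip2 and -0.0163 to 0.23 for Tln1. The change of the RANKL difference with time ran from -0.0103 to 0.34 for Vcl and -0.33 to 0.0324 for Ptk2b, and for Pxn it passed in 5 alternatives. These 5 are not all distinct, since leaving out the day 6 or the day 3 array of a culture with RANKL gave the same fit. Signals within background limit the folds of Src, Cttn and Vcl.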
